A study of Mus musculus with 4 samples.

Results

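The 39 genes described here encode proteins that copy DNA or separate the copied chromosomes. They were chosen by gene symbol, though with earlier results of these data known. They comprise 12 S phase genes (Mcm2 to Mcm7, Pcna, Tyms, Rrm1, Rrm2, Tk1 and Dut), 25 mitotic genes (from Mki67 and Top2a to the cyclins, Cdk1, mitotic kinases, kinetochore and spindle proteins), and Gins2 and Stmn1. All 39 were found among the 45773 genes of the tables, and all 39 had a mean of at least 1 TPM (transcript abundance scaled to a fixed library total) over the 4 libraries, the level from which 12570 genes were counted as measured.

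Expression came from 4 SMART-seq libraries, a method that copies whole transcripts from little RNA. Each library stands for 1 group of mouse CD8 T cells taken from tumours. In the gain experiment, PmelI CD8 T cells, whose transgenic receptor recognises the melanocyte antigen gp100, had been transduced with Klf4, a zinc finger transcription factor, or with the empty retroviral vector MigRI and injected on day 7 into Rag2 KO mice carrying tumours of MC38-gp100 cells, a mouse colon carcinoma line that displays the antigen. Rag2 KO hosts make no T or B cells of their own. GFP+ infiltrating cells were collected on day 15. In the loss experiment, PD1+ CD8+ TILs (tumour-infiltrating lymphocytes bearing the inhibitory receptor PD1) were collected on day 14 from MC38 tumours of Klf4 cKO mice and of control (WT) mice. The labels do not name the Cre driver or the deleted part of Klf4, nor how many animals gave each library. Since each group has 1 library, there is no replicate check and no p-value, and each direction sets 1 library against another.

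A dividing cell loads the MCM helicase onto replication origins, unwinds and copies its DNA in S phase, and then builds a spindle whose attachment to every chromosome is checked before the chromosomes part. Genes of S phase are switched on together by E2F transcription factors, whereas most mitotic genes are held off in resting cells and switched on later through a short promoter element called the CHR, often beside CCAAT boxes bound by NF-Y. CD8 T cells divide rapidly after activation, and within tumours the exhausted population holds cells that still cycle beside cells that do not.

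Promoters of the 2 most abundant members of each class that hold the class's element are printed to show these elements. Some other members of each class hold them too and some lack them. Each runs from 250 bases before to 50 bases after the annotated start, 5′ to 3′ on the gene's strand, in RefSeq's GRCm38.p6 (the sequence called mm10). Mcm6 (chr1:128359656-128359955, minus strand) and Mcm7 (chr5:138171834-138172133, minus strand) encode helicase subunits, and capitals mark E2F letters. Ube2c (chr2:164769679-164769978, plus strand) encodes a ubiquitin-conjugating enzyme and Cenpa (chr5:30666636-30666935, plus strand) the centromeric histone H3 variant, and capitals mark CHR letters.
Mcm6: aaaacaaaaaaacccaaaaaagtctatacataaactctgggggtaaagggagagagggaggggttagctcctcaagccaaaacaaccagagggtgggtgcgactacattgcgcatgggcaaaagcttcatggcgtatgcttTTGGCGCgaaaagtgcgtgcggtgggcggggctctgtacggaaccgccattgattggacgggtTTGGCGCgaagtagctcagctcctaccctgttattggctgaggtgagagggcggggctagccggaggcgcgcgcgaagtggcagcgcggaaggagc
Mcm7: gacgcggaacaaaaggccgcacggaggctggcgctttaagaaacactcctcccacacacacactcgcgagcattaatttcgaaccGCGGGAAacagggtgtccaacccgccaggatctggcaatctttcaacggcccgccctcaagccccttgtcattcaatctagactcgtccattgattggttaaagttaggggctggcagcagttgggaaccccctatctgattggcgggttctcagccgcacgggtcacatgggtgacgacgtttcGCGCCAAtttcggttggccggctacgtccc
Ube2c: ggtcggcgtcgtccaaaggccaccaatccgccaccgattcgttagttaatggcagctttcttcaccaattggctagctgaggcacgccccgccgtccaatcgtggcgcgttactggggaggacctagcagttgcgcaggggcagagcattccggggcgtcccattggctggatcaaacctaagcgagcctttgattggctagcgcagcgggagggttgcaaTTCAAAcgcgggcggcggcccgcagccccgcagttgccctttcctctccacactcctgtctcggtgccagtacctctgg
Cenpa: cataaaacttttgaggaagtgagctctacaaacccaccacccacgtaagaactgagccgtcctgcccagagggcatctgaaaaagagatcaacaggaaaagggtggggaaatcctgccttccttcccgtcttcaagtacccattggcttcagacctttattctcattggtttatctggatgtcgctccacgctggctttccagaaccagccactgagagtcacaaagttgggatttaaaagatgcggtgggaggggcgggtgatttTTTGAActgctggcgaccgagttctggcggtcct
The motifs were searched on both strands as TTCCCGC or TTGGCGC for E2F, TTTGAA for the CHR and CCAAT for the CCAAT box, where a CCAAT box read on the other strand (ATTGG) can share letters with TTGGCGC. The CHR letters stood in 16 of the 21 mitotic members with a promoter in the table (76.2%), in 1 of 11 S phase members (9.09%, Mcm2) and in 18.1% of all 27025 promoters. In 15 of the 21 mitotic promoters (71.4%) the letters lay within 50 bases of the start, against 4.92% of all promoters. They begin 29 bases before the start of Ube2c and 16 bases after that of Cenpa. E2F letters stood in 3 of 21 mitotic promoters (14.3%), in 5 of 11 S phase promoters (45.5%) and in 6.93% of all. CCAAT letters stood in 19 of 21 mitotic promoters (90.5%), 8 of 11 S phase promoters (72.7%) and 37.9% of all. Of the 8778 measured genes with a promoter, 12.8% held CHR letters, 12.6% E2F letters and 40.0% CCAAT letters. The mitotic share with E2F letters lay near that of measured genes. Such a match describes letters in this window and is not a measured site.

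The sequencing depth is unknown from TPM values, so counting error cannot be stated. Between 10542 and 13170 genes per library reached 1 TPM. Klf4, the targeted gene, was at 26.0 TPM in Klf4-transduced cells, against 8.69 TPM in MigRI cells. It was at 9.28 TPM in the library labelled Klf4 cKO, against 7.52 TPM in control, so the Klf4 level does not bear out the cKO label and directions below rest on the label alone. The median difference of log2(TPM + 1) over measured genes was 0.79 for Klf4 over MigRI and 0.74 for Klf4 cKO over control, so the typical gene was higher in the first library of both pairs. A relative log2 difference below is the deposited difference minus this median, and genes apart by 1 log2 (2-fold) or more in either direction were called. T cell, macrophage and fibroblast transcripts were present in all 4 libraries, and their values are given beside the results they move with.

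The genes were expressed in every library, and control TILs held the least. Summed over the 39 genes, the level was 4449 TPM in Klf4-transduced cells, 5089 TPM in MigRI cells, 3141 TPM in TILs labelled Klf4 cKO and 1146 TPM in control TILs. Because Stmn1 alone gave 771, 1745, 1053 and 446 TPM of these sums in the same order, the median gene tells more: it was at 67.3 TPM with Klf4, 25.3 TPM with MigRI, 18.7 TPM in TILs labelled Klf4 cKO and 7.22 TPM in control TILs. The control library was the lowest of the 4 for 37 of 39 genes, and the Klf4-transduced library was the highest for 25. The exceptions were Mki67, lowest with Klf4, and Cenpf, lowest with Klf4 and highest in control. The median level of all measured genes was also lowest in control TILs (3.76 TPM) and highest with Klf4 (12.7 TPM). It was 5.56 TPM with MigRI and 6.81 TPM in TILs labelled Klf4 cKO. How many of all measured genes were lowest in control or highest with Klf4 was not counted. The experiments differ in cells, hosts, tumours and day, so the levels of the 4 libraries are listed together and no difference is taken between experiments. Ranks within a library do not depend on its scaling. The median S phase gene stood at percentile 83.7 of measured genes with Klf4, 78.8 with MigRI, 75.6 in TILs labelled Klf4 cKO and 71.8 in control TILs. The median mitotic gene stood at percentiles 71.7, 69.9, 60.6 and 56.5 in the same libraries. Gene by gene, 7 of 12 S phase and 13 of 25 mitotic genes stood at a higher percentile with Klf4 than with MigRI. In TILs labelled Klf4 cKO, 10 of 12 and 18 of 25 stood higher than in control TILs. Highest by mean level were Stmn1, which encodes the microtubule destabiliser stathmin, Birc5 (survivin), Ube2c, Pcna and Cenpa. Lowest were Bub1, Kif11, Mki67, Kif23, Bub1b and Cenpf, whose mean levels were all below 5 TPM.

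**Figure D1:**
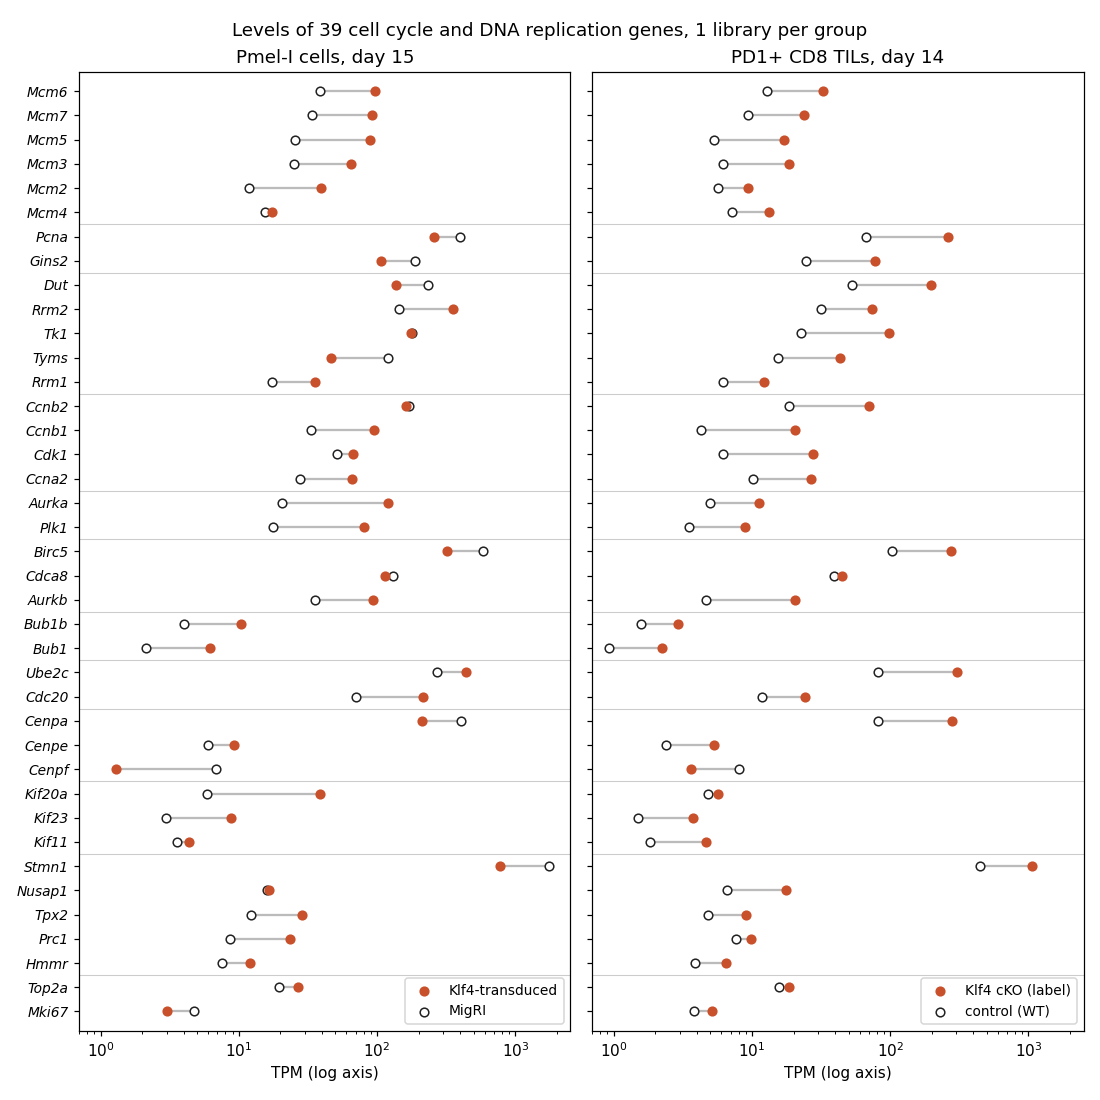
Level of each of the 39 genes in TPM on a log axis, grouped by role, with Klf4-transduced and MigRI PmelI cells on the left and Klf4 cKO and control TILs on the right, 1 library per point. In the gain experiment genes lie on either side. In the loss experiment 38 of 39 are higher in the library labelled Klf4 cKO, as are 9820 of 12570 measured genes.

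The first comparison asked which of these transcripts differed in PmelI cells that had carried Klf4 into the tumour. On the deposited scale, 27 of 39 genes were higher with Klf4, as were 8919 of the 12570 measured genes. At least 2-fold, 18 were higher, where 43.7% of all measured genes were, and 3 were lower, where 10.3% were. Relative to the median gene, 3 were at least 2-fold higher (Aurka, Plk1 and Kif20a), where 21.4% of measured genes were, and 9 were at least 2-fold lower (Pcna, Tyms, Dut, Gins2, Mki67, Birc5, Cenpa, Cenpf and Stmn1), where 23.6% were. The share called lower, 9 of 39, lay near the background share and the share called higher below it. Relative log2 differences ran from -2.57 (Cenpf) to 1.73 (Kif20a). Against the 500 measured genes nearest in mean level, Pcna (-0.33), Dut (-0.75), Birc5 (-0.43), Cenpa (-0.63) and Stmn1 (-0.42) lost the call and Rrm2 (1.18), Cdc20 (1.06) and Ube2c (1.02) gained one. Under that reference 6 of 39 were called higher, where 19.8% of measured genes were, and 4 lower, where 21.3% were. Among genes of at least 10 TPM, 5 of 31 members were called higher, where 23.7% of 5742 genes were, and 7 lower, where 26.5% were.

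Of the MCM helicase subunits, 5 were higher with Klf4 under each alternative run, though none was called relative to the median gene. Against the 500 genes nearest in length the differences were small, at 0.41 (Mcm5), 0.32 (Mcm2), 0.14 (Mcm7), 0.06 (Mcm3) and 0.04 (Mcm6). Mcm5 was at 89.4 TPM with Klf4 and 25.3 TPM with MigRI, a difference of 1.78 log2 as deposited and 0.99 relative. Mcm2 was at 39.3 TPM with Klf4 and 11.9 TPM with MigRI, a relative difference of 0.86. Mcm7 was at 91.8 TPM with Klf4 and 33.6 TPM with MigRI, Mcm3 at 64.6 TPM with Klf4 and 25.05 TPM with MigRI, and Mcm6 at 96.0 TPM with Klf4 and 38.4 TPM with MigRI. Their relative differences were 0.63, 0.54 and 0.51. These 5 of the 6 subunits, which form one ring, lay within 0.48 log2 of one another. Mcm4 stood apart at 17.4 TPM with Klf4 and 15.6 TPM with MigRI, a relative difference of -0.64.

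Genes acting at the fork and in nucleotide supply differed in direction. Pcna, the sliding clamp that holds DNA polymerase on its template, was at 259 TPM with Klf4 and 400.4 TPM with MigRI, lower by 0.63 log2 as deposited and -1.42 relative. Gins2, a subunit of the helicase's GINS partner, was at 106 TPM with Klf4 and 189 TPM with MigRI, a relative difference of -1.62. Tyms, thymidylate synthase, was at 46.6 TPM with Klf4 and 120.3 TPM with MigRI, and its relative difference of -2.14 was the lowest among S phase genes. Dut, which removes dUTP, was at 137 TPM with Klf4 and 232 TPM with MigRI, a relative difference of -1.55. All of Pcna, Gins2, Tyms and Dut were lower with Klf4 on both scales. Tk1, thymidine kinase, was nearly equal at 175 TPM with Klf4 and 179 TPM with MigRI. The ribonucleotide reductase genes went the other way: Rrm2, its cell cycle regulated subunit, was at 351 TPM with Klf4 and 143 TPM with MigRI, and Rrm1 at 35.4 TPM with Klf4 and 17.4 TPM with MigRI, relative differences of 0.50 and 0.19. Reads of the pseudogene Pcna-ps2, listed at 56.2 TPM with Klf4 and 85.7 TPM with MigRI, could be split with Pcna, and 67.3% of the exonic bases of Gins2 overlap Gse1 on the other strand, which this kit cannot tell apart. Gse1 was at 1.54 TPM with Klf4 and 4.63 TPM with MigRI.

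The 3 genes called higher were Aurka, Plk1 and Kif20a, of which Plk1 fell short of the call against the 500 genes nearest in length (0.76). Aurka, a kinase that matures centrosomes, was at 119.8 TPM with Klf4 and 20.4 TPM with MigRI, 2.50 log2 higher as deposited and 1.70 relative. Plk1, polo-like kinase, was at 80.6 TPM with Klf4 and 17.7 TPM with MigRI, a relative difference of 1.33. Kif20a, a kinesin of the spindle midzone, was at 38.8 TPM with Klf4 and 5.92 TPM with MigRI, a relative difference of 1.73. Of the exonic bases of Kif20a, 29.3% overlap Cdc23 on the other strand, which was also higher, at 21.0 TPM with Klf4 and 7.20 TPM with MigRI. Cdc20, the activator of the anaphase promoting complex, was at 216 TPM with Klf4 and 70.0 TPM with MigRI, a relative difference of 0.82.

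Cyclin and Cdk1 genes lay within 2-fold of the median gene. Ccnb1 (cyclin B1) was at 95.6 TPM with Klf4 and 33.5 TPM with MigRI, a relative difference of 0.69. Its close relative Ccnb2 was at 162 TPM with Klf4 and 171 TPM with MigRI, a relative difference of -0.87. Cdk1, the kinase that both cyclins activate, was at 67.3 TPM with Klf4 and 51.0 TPM with MigRI, and Ccna2 (cyclin A2) at 65.3 TPM with Klf4 and 27.8 TPM with MigRI. The level of Ccnb1 was thus 1.42 times that of Cdk1 with Klf4 and 0.656 times with MigRI. For Ccnb2 the order was opposite, at 2.41 times with Klf4 and 3.35 times with MigRI. Reads of the pseudogene Ccnb1-ps, listed at 8.05 TPM with Klf4 and 2.77 TPM with MigRI, could be split with Ccnb1.

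Members of one complex differed in direction. In the chromosomal passenger complex, which corrects faulty spindle attachments, the kinase Aurkb was at 93.2 TPM with Klf4 and 35.7 TPM with MigRI, whereas Birc5 was at 318 TPM with Klf4 and 579.6 TPM with MigRI. Their relative differences were 0.57 and -1.66, and that of Cdca8 (borealin), at 114 TPM with Klf4 and 131 TPM with MigRI, was -0.99. Among kinetochore genes, Cenpa was at 211 TPM with Klf4 and 405 TPM with MigRI, a relative difference of -1.73. Cenpf was at 1.30 TPM with Klf4 and 6.88 TPM with MigRI, a relative difference of -2.57, while the motor Cenpe was at 9.28 TPM with Klf4 and 5.96 TPM with MigRI. Stmn1 was at 771 TPM with Klf4 and 1745 TPM with MigRI, a relative difference of -1.97. The proliferation marker Mki67 was at 3.01 TPM with Klf4 and 4.76 TPM with MigRI, and Top2a, the topoisomerase that untangles chromosomes, at 26.9 TPM with Klf4 and 19.5 TPM with MigRI. Both classic markers of cycling cells therefore lay below the median gene, with relative differences of -1.32 and -0.35. 

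The checkpoint, motor and spindle genes lay within 2-fold of the median gene, Kif20a and Stmn1 excepted. The checkpoint kinase Bub1 was at 6.20 TPM with Klf4 and 2.12 TPM with MigRI, and its partner Bub1b at 10.3 TPM with Klf4 and 3.98 TPM with MigRI, relative differences of 0.41 and 0.39. Kif23, a kinesin of the cytokinetic midzone, was at 8.84 TPM with Klf4 and 2.97 TPM with MigRI, and Prc1, which bundles midzone microtubules, at 23.3 TPM with Klf4 and 8.61 TPM with MigRI, relative differences of 0.52 and 0.55. Neither Kif23 nor Prc1 was called, and against the 500 genes nearest in length they were at 0.05 and 0.08. Tpx2, which activates Aurka on the spindle, was at 28.8 TPM with Klf4 and 12.2 TPM with MigRI, a relative difference of 0.38. Kif11, the motor that pushes spindle poles apart, was at 4.34 TPM with Klf4 and 3.54 TPM with MigRI, and Nusap1, a spindle microtubule binder, at 16.5 TPM with Klf4 and 15.9 TPM with MigRI, relative differences of -0.56 and -0.74. Hmmr, a spindle-associated protein, was at 12.1 TPM with Klf4 and 7.59 TPM with MigRI, and Ube2c at 437 TPM with Klf4 and 271 TPM with MigRI, relative differences of -0.19 and -0.11. Of the exonic bases of Ube2c, Ccna2 and Prc1, 22.8%, 12.5% and 11.1% overlap Tnnc2, Exosc9 and Rccd1 on the other strand, and Exosc9 was at 57.0 TPM with Klf4 and 49.2 TPM with MigRI.

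S phase genes were set beside mitotic genes in the same libraries. The S phase median was 1.14 log2 as deposited and 0.34 relative, a value that turned to -0.10 against the 500 measured genes nearest in transcript length. The mitotic median was 0.68 as deposited and -0.11 relative, and it turned positive with a pseudocount of 5 (0.18), under quantile normalization (0.12), among genes of at least 10 TPM (0.52) and against the 500 genes nearest in level (0.08). The mitotic median lay 0.45 log2 below the S phase median, and the error of that gap is not known from 1 library per group.

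**Figure D2:**
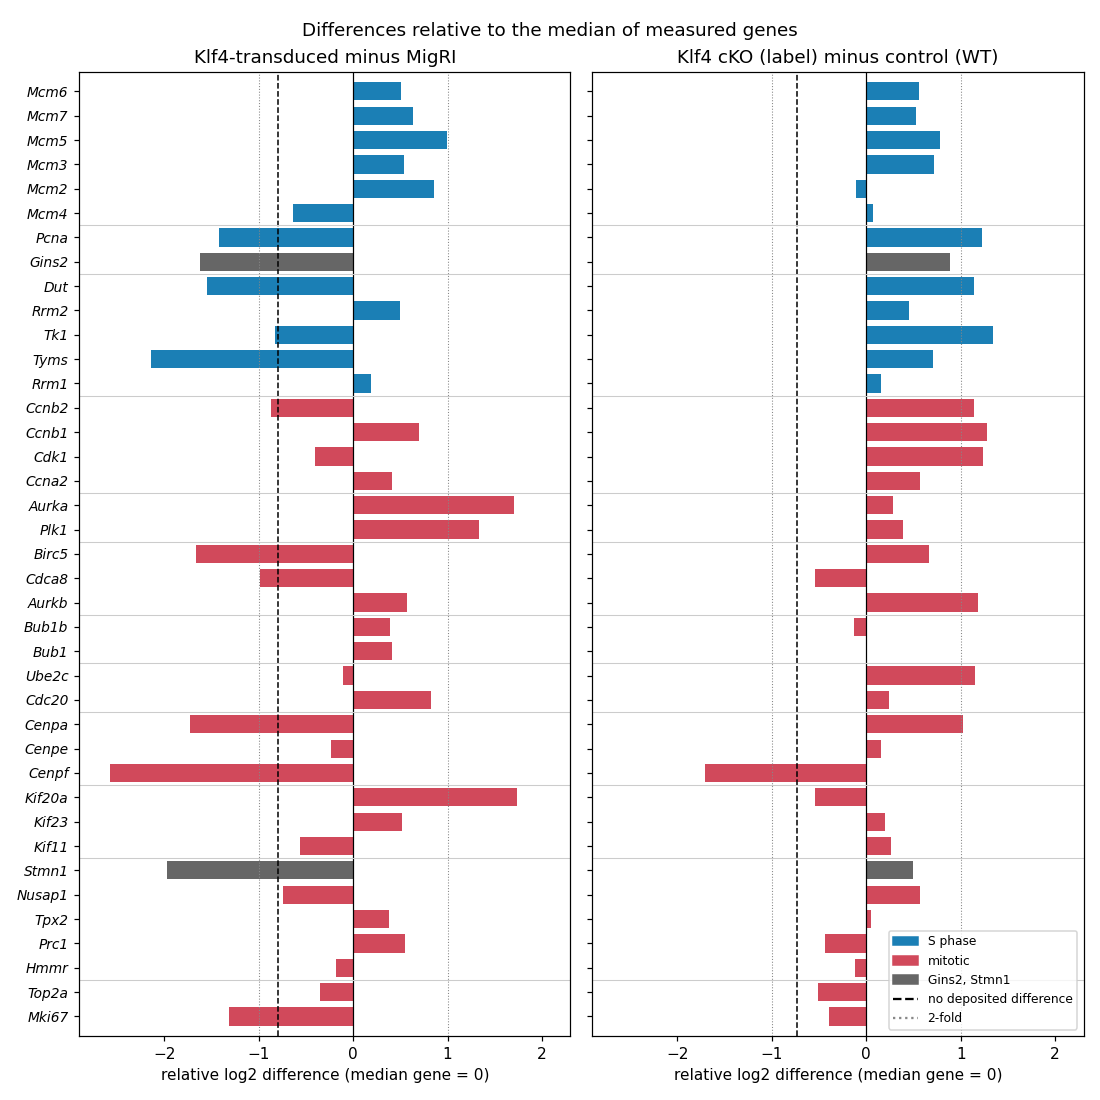
Relative log2 difference of each gene, Klf4-transduced minus MigRI on the left and Klf4 cKO minus control on the right, with S phase genes in blue, mitotic genes in red and Gins2 and Stmn1 in grey. The dashed line marks no deposited difference and dotted lines 2-fold. With Klf4 the bars reach from -2.57 to 1.73, and in the loss experiment from -1.71 to 1.34.

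Markers of cell types also differed between these libraries. All 12 T cell markers were lower with Klf4, with a summed level of 5846 TPM against 24706 TPM in MigRI cells and a median difference of -2.07 log2 as deposited. Of the 13 measured macrophage markers, 13 were higher, with all 14 markers summing to 7578 TPM with Klf4 and 1748 TPM with MigRI. Of the 9 measured fibroblast and endothelial markers, 8 were higher, with all 10 markers summing to 1396 TPM with Klf4 and 145 TPM with MigRI. Cd74 (2251 TPM with Klf4 and 711 TPM with MigRI) and Lyz2 (1423 TPM with Klf4 and 344 TPM with MigRI) led the macrophage list, and Sparc (821 TPM with Klf4 and 89.3 TPM with MigRI) and Dcn (302 TPM with Klf4 and 31.1 TPM with MigRI) the fibroblast list. Neutrophil and mast cell markers summed to 167 TPM with Klf4 and 30.5 TPM with MigRI, led by S100a8 and Tpsb2. Epithelial tumour cell markers were low, at 6.53 TPM with Klf4 and 2.68 TPM with MigRI over 10 genes, with Krt19, Krt20 and Cldn4 listed at 0 in both libraries, and B cell and CD4 T cell markers summed to 22.2 TPM with Klf4 and 5.60 TPM with MigRI. The part of other cells in the cell cycle transcripts was not tested. Fewer cycling cells and less RNA per cell cannot be told apart in such bulk libraries. Against 8 T cell receptor and coreceptor genes (Cd3d, Cd3e, Cd3g, Cd8a, Cd8b1, Trac, Trbc1 and Trbc2), the S phase median was 3.20 log2 and the mitotic median 2.75 log2 higher with Klf4, and all 20 genes that lay below the median gene turned positive.

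The second comparison asked which of these transcripts differed in PD1+ TILs of mice labelled as lacking Klf4. On the deposited scale the library labelled Klf4 cKO had the higher value for 38 of 39 genes, the exception being Cenpf. It also had the higher value for 9820 of the 12570 measured genes. At least 2-fold, 22 were higher, where 38.4% of measured genes were, and 0 were lower, where 6.92% were. Relative to the median gene, 9 were at least 2-fold higher (Pcna, Tk1, Dut, Aurkb, Ccnb1, Ccnb2, Cdk1, Cenpa and Ube2c), where 12.4% of measured genes were, and 1 was lower (Cenpf), where 16.2% were. Against the 500 measured genes nearest in mean level, 1 of 39 genes was called higher (Stmn1), where 6.63% of measured genes were, and 2 lower (Cdca8 and Cenpf), where 16.6% were. Against the 500 nearest in length 2 were called higher (Ccnb1 and Gins2), where 8.64% were, and Cdca8 and Cenpf lower, where 12.9% were. Among genes of at least 10 TPM, 0 of 31 members were called higher, where 6.5% were, and 1 lower, where 22.5% were.

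All 12 S phase genes were higher in TILs labelled Klf4 cKO on the deposited scale, as were 9820 of the 12570 measured genes. Of the 12, 11 lay above the median gene. Tk1 was at 98.5 TPM in TILs labelled Klf4 cKO and 22.6 TPM in control TILs, 2.08 log2 higher as deposited and 1.34 relative, the highest of all 39. Pcna was at 262 TPM in TILs labelled Klf4 cKO and 66.4 TPM in control TILs, a relative difference of 1.23. Dut was at 198 TPM in TILs labelled Klf4 cKO and 53.1 TPM in control TILs, a relative difference of 1.14. The short transcripts of nucleotide supply and of the clamp therefore led the class. Tyms was at 43.6 TPM in TILs labelled Klf4 cKO and 15.4 TPM in control TILs, and Rrm2 at 73.6 TPM in TILs labelled Klf4 cKO and 31.6 TPM in control TILs, relative differences of 0.70 and 0.46. The MCM genes ranged from 9.36 TPM (Mcm2) to 32.9 TPM (Mcm6) in TILs labelled Klf4 cKO, against 5.29 TPM (Mcm5) to 12.8 TPM (Mcm6) in control TILs, and their relative differences ran from -0.11 (Mcm2) to 0.79 (Mcm5). Gins2 was at 77.6 TPM in TILs labelled Klf4 cKO and 24.5 TPM in control TILs, a relative difference of 0.88, while the overlapping Gse1 was at 7.28 TPM in TILs labelled Klf4 cKO and 20.2 TPM in control TILs. Pcna-ps2 was at 56.9 TPM in TILs labelled Klf4 cKO and 16.0 TPM in control TILs.

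Of the cyclin and Cdk1 genes, 3 of 4 were called higher relative to the median gene, where 12.4% of measured genes were. Against the 500 genes nearest in level, none of Ccnb1 (0.78), Cdk1 (0.64) and Ccnb2 (0.50) was called. Against the 500 nearest in length, Ccnb1 (1.10) was called and Cdk1 (0.63) and Ccnb2 (0.53) were not. Ccnb1 was at 20.4 TPM in TILs labelled Klf4 cKO and 4.28 TPM in control TILs, a relative difference of 1.28. Cdk1 was at 27.4 TPM in TILs labelled Klf4 cKO and 6.22 TPM in control TILs, a relative difference of 1.24. Ccnb2 was at 70.8 TPM in TILs labelled Klf4 cKO and 18.5 TPM in control TILs, a relative difference of 1.14. Ccna2, at 26.8 TPM in TILs labelled Klf4 cKO and 10.2 TPM in control TILs, was not called, with a relative difference of 0.57, and 12.5% of its exonic bases overlap Exosc9 on the other strand, which was at 35.0 TPM in TILs labelled Klf4 cKO and 8.42 TPM in control TILs. The level of Ccnb1 was 0.744 times that of Cdk1 in TILs labelled Klf4 cKO and 0.688 times in control TILs. For Ccnb2 it was 2.58 times in TILs labelled Klf4 cKO and 2.98 times in control TILs. The pseudogene Ccnb1-ps was at 1.67 TPM in TILs labelled Klf4 cKO and 0.297 TPM in control TILs. Aurkb was at 20.6 TPM in TILs labelled Klf4 cKO and 4.68 TPM in control TILs, a relative difference of 1.19. Ube2c was at 303 TPM in TILs labelled Klf4 cKO and 81.0 TPM in control TILs, and Cenpa at 278 TPM in TILs labelled Klf4 cKO and 81.1 TPM in control TILs, relative differences of 1.15 and 1.03.

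Of the 5 members over 4000 nucleotides, Mki67, Top2a and Cenpf lay below the median gene and Kif11 and Cenpe above it (0.26 and 0.16). Mki67 was at 5.13 TPM in TILs labelled Klf4 cKO and 3.84 TPM in control TILs, and Top2a at 18.6 TPM in TILs labelled Klf4 cKO and 15.7 TPM in control TILs, relative differences of -0.40 and -0.51. Cenpf was at 3.60 TPM in TILs labelled Klf4 cKO and 8.03 TPM in control TILs, a relative difference of -1.71. Kif20a had the highest relative difference of the 39 genes in the gain experiment. Here Kif20a was at 5.64 TPM in TILs labelled Klf4 cKO and 4.79 TPM in control TILs, a relative difference of -0.54. Cdca8 was at 45.0 TPM in TILs labelled Klf4 cKO and 39.3 TPM in control TILs, a relative difference of -0.55. Aurka was at 11.2 TPM in TILs labelled Klf4 cKO and 5.01 TPM in control TILs, and Plk1 at 8.89 TPM in TILs labelled Klf4 cKO and 3.53 TPM in control TILs, relative differences of 0.28 and 0.39. Birc5 was at 277 TPM in TILs labelled Klf4 cKO and 104 TPM in control TILs, and Stmn1 at 1053 TPM in TILs labelled Klf4 cKO and 446 TPM in control TILs, relative differences of 0.67 and 0.50. 

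The other mitotic genes and Rrm1 lay within 2-fold of the median gene in the loss experiment. Nusap1 was at 17.7 TPM in TILs labelled Klf4 cKO and 6.55 TPM in control TILs, a relative difference of 0.57. Cdc20 was at 24.2 TPM in TILs labelled Klf4 cKO and 11.8 TPM in control TILs, a relative difference of 0.24. Of the midzone genes, Kif23 (3.75 TPM in TILs labelled Klf4 cKO and 1.49 TPM in control TILs) was slightly above the median gene and Prc1 (9.77 TPM in TILs labelled Klf4 cKO and 7.72 TPM in control TILs) below it, with relative differences of 0.20 and -0.43. Bub1, Bub1b, Kif11, Tpx2, Hmmr and Cenpe had levels of 2.22 to 9.09 TPM in TILs labelled Klf4 cKO, against 0.931 to 4.84 TPM in control TILs, and relative differences from -0.13 (Bub1b) to 0.26 (Kif11). Rrm1 was at 12.2 TPM in TILs labelled Klf4 cKO and 6.15 TPM in control TILs, a relative difference of 0.15.

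The S phase median was 1.37 log2 as deposited and 0.63 relative, and it turned to -0.0055 against the 500 genes nearest in level and to -0.38 against the 8 T cell genes. The mitotic median was 0.98 as deposited and 0.24 relative, and turned to -0.0054 and -0.77 under the same references. The mitotic median lay 0.39 log2 below the S phase median, again with no known error. T cell markers lay in the same direction here: 10 of 12 had the higher value under the Klf4 cKO label, as did 9820 of the 12570 measured genes. Relative to the median gene, 9 of the 12 were higher. The 12 markers summed to 18776 TPM under that label against 8227 TPM in control. The 8 T cell genes had a median difference of 1.75 log2 as deposited. Of the 13 measured macrophage markers 12 were higher, with all 14 summing to 1862 TPM in TILs labelled Klf4 cKO and 566 TPM in control TILs, and the 10 fibroblast and endothelial markers summed to 254 TPM in TILs labelled Klf4 cKO and 30.7 TPM in control TILs. The 10 epithelial tumour cell markers summed to 9.70 TPM in TILs labelled Klf4 cKO and 7.44 TPM in control TILs, with Krt8, Krt19, Krt7, Krt20 and Cldn4 listed at 0 in both. Neutrophil and mast cell markers summed to 46.1 TPM in TILs labelled Klf4 cKO and 29.6 TPM in control TILs, a sum that joins opposite directions. The neutrophil gene S100a8 was at 2.44 TPM in TILs labelled Klf4 cKO and 18.1 TPM in control TILs. The mast cell gene Tpsb2 was at 21.1 TPM in TILs labelled Klf4 cKO and 0 TPM in control TILs. B cell and CD4 T cell markers summed to 7.98 TPM in TILs labelled Klf4 cKO and 12.1 TPM in control TILs. The part of other cells in this difference was not tested.

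Set side by side, the experiments, which share no library, gave the genes different orders. Relative to the median gene, 15 of 39 were higher in both, 5 lower in both, 15 lower with Klf4 and higher in TILs labelled Klf4 cKO, and 4 higher with Klf4 and lower in TILs labelled Klf4 cKO. Of all measured genes, 3754 were higher in both, 3754 lower in both, 2531 lower with Klf4 and higher in TILs labelled Klf4 cKO, and 2531 the opposite. Pcna, Dut and Cenpa were called lower with Klf4 and called higher in the library labelled Klf4 cKO relative to the median gene, as were 230 of the 12570 measured genes. Against the 500 genes nearest in level, none of these kept either call. They were then at -0.33, -0.75 and -0.63 with Klf4, and at 0.91, 0.62 and 0.72 in TILs labelled Klf4 cKO. Against the 500 nearest in length, they kept the lower call with Klf4. In TILs labelled Klf4 cKO they were then at 0.60, 0.68 and 0.43, short of the call. Relative to the median gene, Cenpf was called lower in both, as were 1190 measured genes. Across the 39 genes the relative differences of the experiments had a Pearson r of -0.04 (Spearman -0.14), and across all measured genes 0.33 (Spearman 0.30). These are descriptions over genes, which are not independent replicates.

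**Figure D3:**
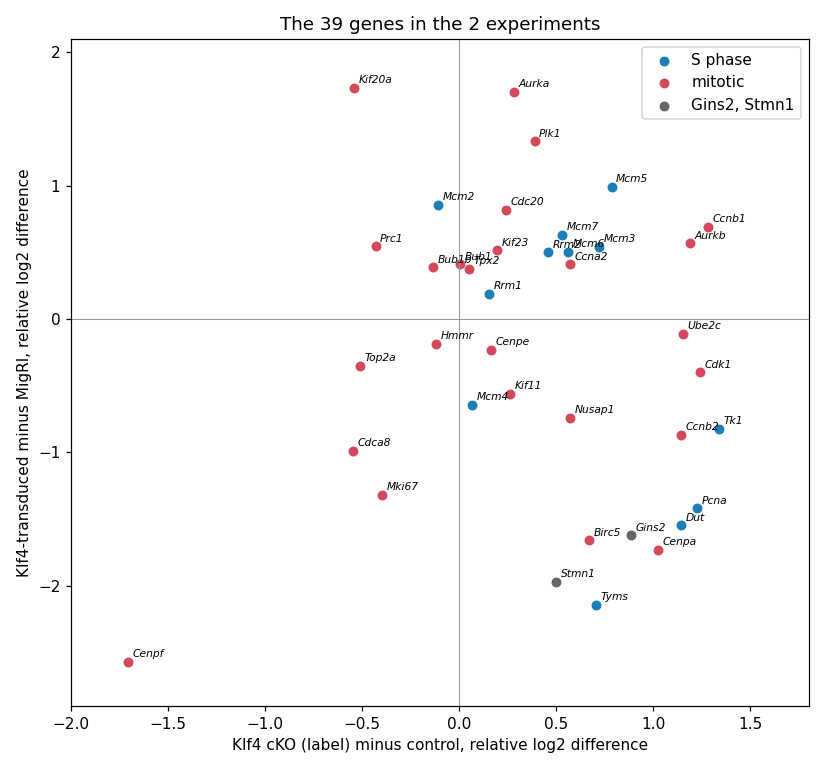
Relative log2 difference of the 39 genes, Klf4 cKO minus control on the horizontal axis and Klf4-transduced minus MigRI on the vertical axis, with S phase genes in blue, mitotic genes in red and Gins2 and Stmn1 in grey. The lower right part holds 15 genes, among them Pcna, Dut, Cenpa, Tyms and Stmn1, and Cenpf lies alone at the far lower left.

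Differences varied with transcript length. TPM divides by length, and transcripts under 1000 nucleotides (principal transcript, GENCODE vM21) took 34.3% of TPM with Klf4, 57.9% with MigRI, 58.3% in TILs labelled Klf4 cKO and 74.1% in control TILs. In the gain experiment, all 13 members under 2000 nucleotides except Aurka, Aurkb and Cdc20 were lower relative to the median gene. Of the 8 members of 2000 to 3000 nucleotides 7 were higher, the exception being Nusap1, and all 5 members over 4000 nucleotides (Mki67, Top2a, Cenpe, Cenpf and Kif11) were lower. Medians of measured genes were -1.12 under 1000, 0.18 from 1000 to 2000, 0.60 from 2000 to 3000, 0.43 from 3000 to 4000 and 0.02 over 4000 nucleotides (relative log2). Members of 1000 to 2000 nucleotides, at a median of -0.84, lay below measured genes of that length. In the loss experiment, members under 1000 nucleotides had a median of 0.67, those of 1000 to 2000 a median of 1.14, those of 2000 to 3000 a median of 0.56, those of 3000 to 4000 a median of 0.05 and those over 4000 a median of -0.40, against -0.41, 0.56, 0.16, -0.09 and -0.21 for measured genes of the same 5 ranges. The Spearman correlation of length with the relative difference across the 39 genes was -0.64 in the loss experiment and 0.03 in the gain experiment, against -0.10 and 0.25 over 11761 measured genes with a length. The annotated principal transcript may not be the one expressed, and the part of length in the differences was not tested. Against the 500 genes nearest in length, 2 of 39 were called higher with Klf4, where 17.9% of measured genes were, and 12 lower, where 19.7% were. There 11 of the 12 genes called in the gain experiment kept their call and direction (the exception being Plk1, at 0.76), while 2 of the 10 called in the loss experiment did (Ccnb1 and Cenpf).

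**Figure D4:**
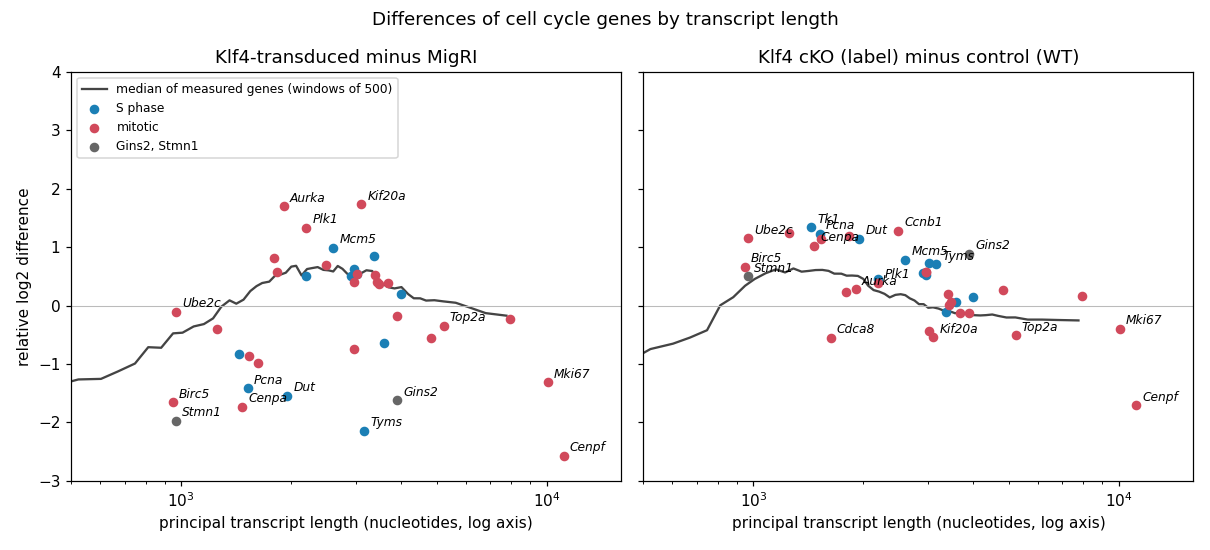
Relative log2 difference of the 39 genes against principal transcript length in nucleotides (log axis), Klf4-transduced minus MigRI on the left and Klf4 cKO minus control on the right. The line is the running median of 500 measured genes. On the left Birc5, Stmn1, Cenpa, Pcna, Dut, Tyms and Cenpf lie below the line and Aurka and Kif20a above it, and on the right Tk1, Pcna and Ccnb1 lie above it and Cenpf, Cdca8 and Kif20a lowest.

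A further 112 cell cycle genes in 8 lists were examined for the same machinery, of which 111 were found and measured. Relative to the median gene, 12 were called higher and 27 called lower with Klf4, against background shares of 21.4% and 23.6%. In the library labelled Klf4 cKO 14 were higher and 8 lower, against 12.4% and 16.2%. Their medians were -0.15 with Klf4 and 0.23 in the library labelled Klf4 cKO, against -0.11 and 0.46 for the 39 genes.

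Origin licensing and firing genes had relative medians of -0.05 with Klf4 (1 of 12 higher and 1 lower at least 2-fold) and 0.54 in TILs labelled Klf4 cKO (2 higher and 1 lower). Gmnn, which encodes the licensing inhibitor geminin, was at 152 TPM with Klf4 and 217 TPM with MigRI, and at 135 TPM in TILs labelled Klf4 cKO and 48.9 TPM in control TILs. Genes of the replication fork and nascent chromatin had medians of -0.35 (1 of 22 higher and 7 lower) and 0.51 (5 higher and 3 lower). Rfc3, a subunit of the clamp loader that opens the Pcna ring, was at 288 TPM with Klf4 and 129 TPM with MigRI, and at 75.2 TPM in TILs labelled Klf4 cKO and 18.7 TPM in control TILs. Rfc2, another subunit, was at 196 TPM with Klf4 and 214 TPM with MigRI, and at 110.2 TPM in TILs labelled Klf4 cKO and 33.5 TPM in control TILs.

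G1 to S regulators had medians of 0.27 with Klf4 (3 of 12 higher and 2 lower) and 0.12 in TILs labelled Klf4 cKO (1 higher and 0 lower). Cdk4, the kinase partner of D cyclins, was at 565 TPM with Klf4 and 213 TPM with MigRI, and at 127 TPM in TILs labelled Klf4 cKO and 32.2 TPM in control TILs. Kinetochore and spindle checkpoint genes had medians of -0.41 (1 of 14 found higher and 4 lower) and 0.44 (3 higher and 1 lower). Bub3, a checkpoint protein, was at 196 TPM with Klf4 and 171 TPM with MigRI, and at 102 TPM in TILs labelled Klf4 cKO and 25.5 TPM in control TILs. Spc24 of the same list was lower in both pairs. It was at 83.9 TPM with Klf4 and 182 TPM with MigRI, and at 82.0 TPM in TILs labelled Klf4 cKO and 90.0 TPM in control TILs.

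Genes of condensin, cohesin and chromosome release had the lowest cell cycle median with Klf4, -0.86, with 0 of 10 higher and 5 lower, and a median of -0.20 in TILs labelled Klf4 cKO (0 higher and 1 lower). Pttg1, the securin that restrains separase, was at 206 TPM with Klf4 and 450.0 TPM with MigRI, and at 341 TPM in TILs labelled Klf4 cKO and 301 TPM in control TILs. Smc4, a condensin subunit, was at 31.0 TPM with Klf4 and 54.4 TPM with MigRI, and at 64.2 TPM in TILs labelled Klf4 cKO and 20.0 TPM in control TILs. Spindle motor and cytokinesis genes had medians of 0.16 (3 of 15 higher and 1 lower) and 0.03 (0 of 15 called), and Tacc3, a spindle protein, was at 86.4 TPM with Klf4 and 28.7 TPM with MigRI. Mitotic entry genes had medians of 0.13 (2 of 14 higher and 4 lower) and 0.00 (2 higher and 1 lower). Cks1b, a small subunit of Cdk complexes, was at 777 TPM with Klf4 and 1350.3 TPM with MigRI, and at 523 TPM in TILs labelled Klf4 cKO and 318 TPM in control TILs. Chromatin and tubulin genes raised in cycling cells had medians of -0.55 (1 of 12 higher and 3 lower) and 0.08 (1 higher and 1 lower). H2afz, a histone variant, was at 2749 TPM with Klf4 and 2966 TPM with MigRI, and at 1830 TPM in TILs labelled Klf4 cKO and 563 TPM in control TILs.

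**Figure D5:**
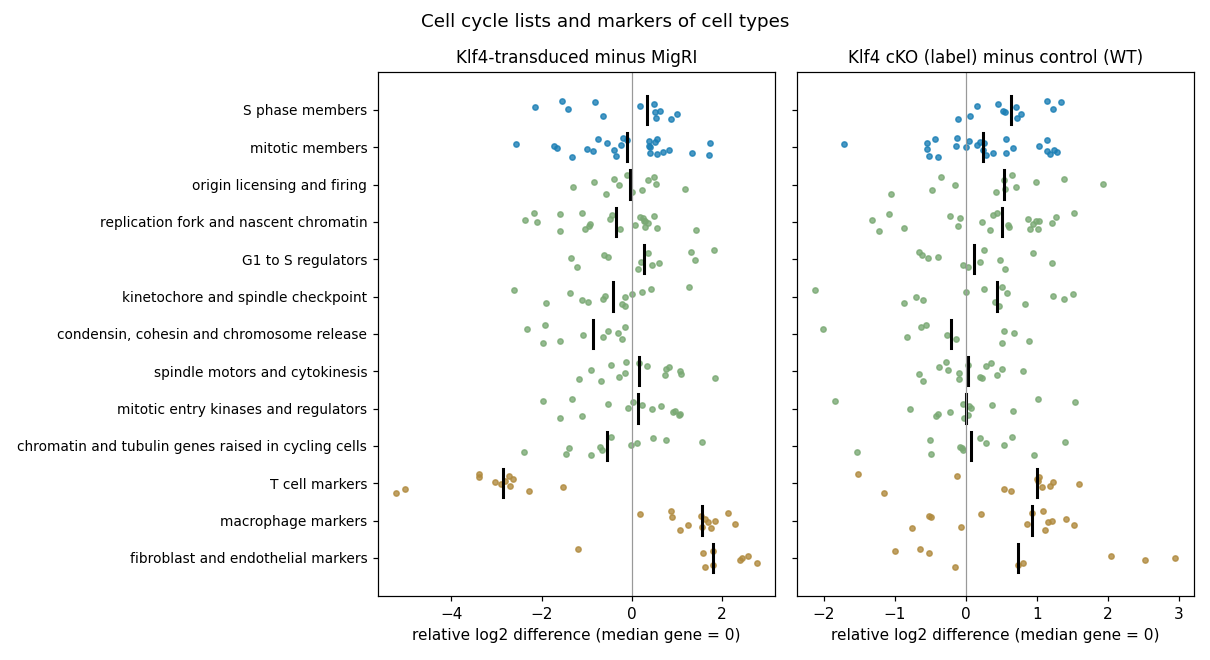
Relative log2 difference of every measured gene in the S phase and mitotic classes (blue), 8 further cell cycle lists (green) and 3 marker lists (brown), Klf4-transduced minus MigRI on the left and Klf4 cKO minus control on the right, with list medians as black bars. Cell cycle medians lie between -0.86 and 0.34 on the left and between -0.20 and 0.63 on the right, while T cell markers lie at -2.86 on the left and 1.01 on the right.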

How the data were processed

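SMART-seq libraries of mouse tumour CD8 T cells were analysed, 1 per group. Per the labels' protocols, they were made with the SMART-seq v4 kit, which does not mark strand. The submitters' processing notes list Trimmomatic, HISAT2, StringTie, edgeR and the build mm10. The sources used here give neither their versions nor their roles. The authors deposited gene-level TPM values, 1 table per library. TPM scales each library to the same total and keeps no depth.

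In the control table, 26 symbols had become dates, and the 4 genes behind 2 ambiguous ones were left out. Differences of log2(TPM + 1) were taken within each experiment with pandas 2.3.3, as deposited and minus the median of measured genes (mean of 1 TPM or more). A difference of at least 1 log2 was called. No test is possible with 1 library per group. Lengths came from GENCODE vM21 (the shortest APPRIS principal transcript, or the longest transcript where none is marked), which covered 93.6% of measured genes. Promoters came from RefSeq (GRCm38.p6). Of the 39 genes, 32 matched, and the first listed start was used. Scripts were tested on simulated data.

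All 39 genes are named. Of each other list, the 2 genes with the highest mean TPM qualified for naming, and any others were named after their values were seen. Members, lists and rules were chosen with earlier results of these data known. Alternatives were pseudocounts of 0.1 and 5, no filter or at least 10 TPM, median of ratios and quantile scaling, rescaling without abundant or mitochondrial, ribosomal and receptor genes, and other references for the relative difference.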

Additional observations from a re-analysis of the deposited data

How the results depend on the processing

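No paired analysis was possible because each group has 1 library, and for the same reason no library could be left out. Values below are relative log2 medians or counts, first for Klf4 over MigRI and then for Klf4 cKO over control. Without centring, a reading added after seeing the data, and without a filter, where the median gene is at 0, the S phase median was 1.14 and 1.37, the mitotic median 0.68 and 0.98, genes of the 39 called higher 18 and 22 and called lower 3 and 0. Measured genes called higher were then 5491 and 4826 without centring and 6358 and 5006 without a filter, and those called lower 1289 and 870, and 1418 and 1077. Relative to the 8 T cell genes, the S phase median was 3.20 and -0.38, the mitotic median 2.75 and -0.77, genes of the 39 called higher 36 and 0 and lower 0 and 10, and measured genes called higher 11378 and 113 and lower 101 and 6339. Under that reference all 20 genes that lay below the median gene changed sign with Klf4. Among them were the 9 called lower: Pcna (1.44), Tyms (0.71), Dut (1.31), Mki67 (1.54), Birc5 (1.20), Cenpa (1.13), Cenpf (0.29), Gins2 (1.24) and Stmn1 (0.89). At 10 TPM the mitotic median with Klf4 was 0.52, genes of the 39 called higher 5 and 0, and measured genes called higher 1358 and 373 and lower 1522 and 1292, where fewer genes were tested. Against genes nearest in level, genes of the 39 called higher were 6 and 1 and lower 4 and 2, measured genes called higher in the loss experiment 833 and the S phase median there -0.0055. Against genes nearest in length, genes of the 39 called in the loss experiment were 2 higher and 2 lower, and 1016 measured genes were higher. Genes of the 39 called higher with Klf4 were 5 with a pseudocount of 5 and 5 under quantile normalization. In the loss experiment they were 4 with a pseudocount of 0.1, 4 under median of ratios scaling and 1 under quantile normalization. A pseudocount of 5 left 0 genes called lower there, and 1583 and 919 measured genes called lower. The mitotic minus S phase gap, -0.45 and -0.39, ran from -0.47 to 0.03 and from -0.58 to 0.00 over the alternatives, turning positive with Klf4 at 10 TPM (0.03) and against genes nearest in length (0.01). The causes were not tested. All 12 genes called with Klf4 kept their call under a pseudocount of 0.1, median of ratios scaling and both rescalings.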
